A study of Oryza sativa with 8 samples.

Results

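Large differences between a transgenic rice line and wild type lay crowded in 5 stretches of neighbouring loci, on chromosomes 4, 7, 11 and 12 by the numbering of their IDs. The members were chosen by measured values of these same libraries: the 5 ID ranges are those in which the mEmBP-OE-4 against WT comparison had put unusually many changes over 8-fold. A row is a member when its ID sorts within one of the ranges and it holds 15 or more counts summed over the 8 libraries. This gave 191 members of 36850 rows in the table. Since the comparison itself chose the ranges, the sizes and counts of differences below are a description and carry no test.

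The mEmBP-OE-4 group held 4 libraries of 1 transgenic line that overexpresses mEmBP-1a, and the WT group held 4 libraries of wild-type rice (Oryza sativa). In both groups RNA came from the second leaf from the top of field-grown plants at the start of heading, sampled at about 10 a.m.. The sources used here give neither the promoter of the transgene nor the rice variety, nor whether a library is 1 plant or a pool, so the spread between libraries may be partly technical. Libraries held 38308580 to 50800180 counts in mEmBP-OE-4 and 35627524 to 47643781 in WT.

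mEmBP-1a is a bZIP transcription factor from maize. Factors of this class bind DNA as dimers at short elements with an ACGT core, among them the G-box found in many light-responsive plant promoters. Rice locus IDs of the Os type carry the chromosome number and then a number that runs along the chromosome, so sorting them puts neighbours side by side. Neighbouring plant loci may be members of tandem arrays of related genes, and reads from near-identical copies can be split or lost in counting. Neither the count table nor the RefSeq gene table for assembly ASM3414082v1 (0 of 191 members matched) pairs these IDs with a gene name, so no product or role is given for any locus.

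Within the segments, lower levels in mEmBP-OE-4 were the main pattern. Of the 191 members, 159 passed the filter on low counts and were tested, among all 20690 genes tested. A locus is called here when its adjusted p was under 0.05 by edgeR's quasi-likelihood test. In mEmBP-OE-4, 82 members were called lower, 22 were called higher and 55 were not called, where 19.1% of all tested genes were called lower and 20.1% higher. With the replicate numbers as a block, 96 members were called lower, 25 higher and 38 not. The split of calls depends on the scaling: with library totals alone, which moved the median log2 fold change of all tested genes to -0.47, 111 members were called lower and 13 higher. Members lower by over 8-fold numbered 57 and those higher by over 8-fold 10, where 1.31% of all tested genes were lower by that much and 1.71% higher. The 57 were 21.0% of the 271 genes lower by over 8-fold in the whole table. The 10 were 2.82% of the 354 higher by over 8-fold, and the tested members were 0.768% of tested genes. Because the ranges were drawn around such loci, nothing is read from these counts against any of those shares. In bulk leaf RNA, fewer cells of a type and less RNA per cell cannot be told apart for any of these loci.

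Many of the lower members had next to no counts in the line. Levels are given as CPM, counts per 1000000 of a library size scaled by TMM. They were under 1 CPM in all 4 mEmBP-OE-4 libraries and at least 1 CPM in all 4 WT libraries for 42 members, where 1.52% of all tested genes had this pattern. Those 42 averaged 0 to 0.438 CPM in mEmBP-OE-4, with a median of 0.0620 CPM, and 1.20 to 35.2 CPM in WT, with a median of 4.19 CPM. The opposite pattern, at least 1 CPM in all mEmBP-OE-4 libraries and under 1 CPM in all WT libraries, was held by 8 members, where 1.49% of all tested genes had it. They averaged 1.21 to 7.13 CPM in mEmBP-OE-4 and 0 to 0.282 CPM in WT.

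Of the 57 members lower by over 8-fold, 9 had no count in any mEmBP-OE-4 library and 13 had 1 to 3 counts over all 4. For the 9, only a lower bound of the fold can be given, taken against 3 counts over the group (0.0202 CPM in mEmBP-OE-4, 0.0155 CPM in WT). These bounds ran from at least 16.8-fold to at least 176-fold lower in mEmBP-OE-4. Bounds and intervals of this kind cover counting error only.

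**Figure D1:**
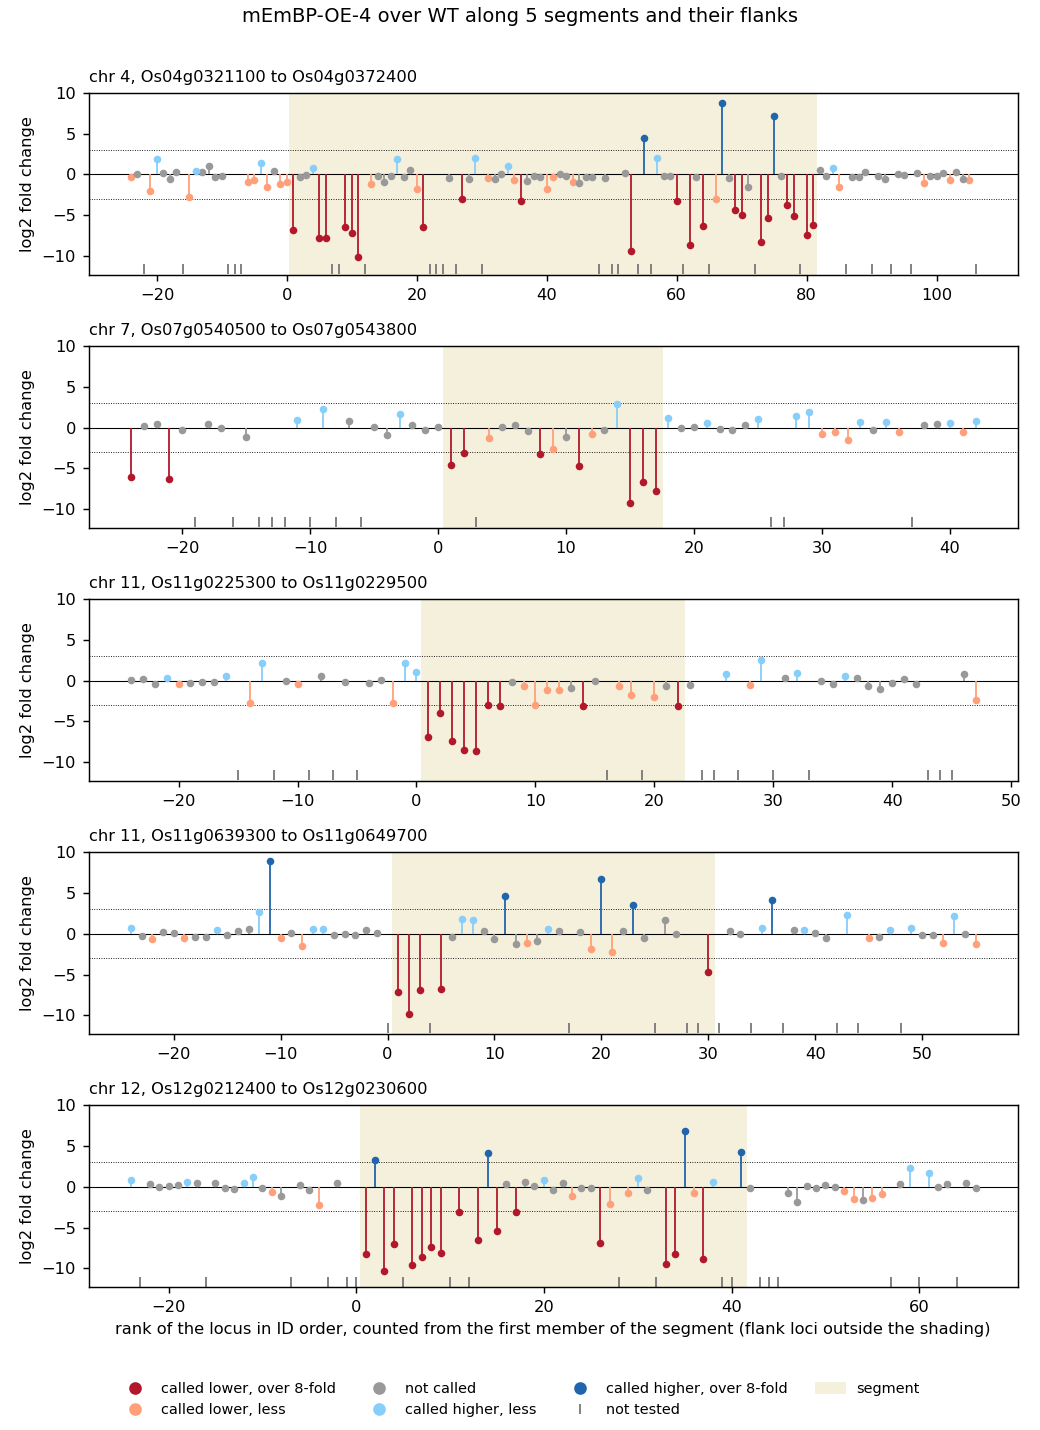
Log2 fold change of mEmBP-OE-4 over WT (y axis) for each tested locus, in ID order (x axis, rank from the first member); shading marks the 5 segments, dotted lines 8-fold, ticks at the bottom loci below the filter. The 57 members below the lower dotted line stand among loci of other classes, and the flanks hold 2 such loci. Of the 159 tested members 46 lie within 1.5-fold of 0 change, but only 2 of 20 in the Os11g02 segment. Values of loci with no count in 1 group are fitted and only show direction.

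The chromosome 4 segment, Os04g0321100 to Os04g0372400, was the longest, with 154 rows, 81 members and 64 tested. In it 21 members were lower by over 8-fold and 3 higher by over 8-fold, 8 more were lower and 5 higher by less, and 27 were not called. The 3 named as largest among the lower ones were near silent in the line. Os04g0330200 had no count in any mEmBP-OE-4 library, against 7.03, 1.37, 2.13 and 1.96 CPM in WT replicates 1 to 4, at least 171-fold lower. Os04g0355401 had 0.0516, 0, 0 and 0.0513 CPM in mEmBP-OE-4 replicates 1 to 4, against 12.9, 21.4, 21.4 and 21.9 CPM in WT, a log2 fold change of -9.35 (SE 0.44). Os04g0367000 had 0, 0, 0 and 0.0770 CPM in mEmBP-OE-4, against 22.6, 5.16, 4.52 and 5.50 CPM in WT. Its 3 counts in the line put it 525-fold lower, with a 95% counting interval of 179-fold to 2547-fold. For all 3 loci every mEmBP-OE-4 library lay below every WT library, but WT replicate 1 was far above the other WT libraries at Os04g0330200 and Os04g0367000 and below them at Os04g0355401. Without WT replicate 1 the bound at Os04g0330200 was at least 89.1-fold and the ratio at Os04g0367000 252-fold.

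The 3 members of this segment higher by over 8-fold lay in its right part, with members lower by over 8-fold on both sides. Os04g0368300 had 1.21, 1.03, 1.06 and 1.54 CPM in mEmBP-OE-4 replicates 1 to 4 and no count in any WT library, at least 78.8-fold higher. Os04g0370500 had 1.47, 1.97, 3.2 and 1.10 CPM in mEmBP-OE-4, against 0, 0, 0 and 0.0435 CPM in WT, a ratio of 189 with a 95% counting interval of 51.8 to 1565. Os04g0359100 had 3.97, 1.03, 7.68 and 2.0 CPM in mEmBP-OE-4, against 0.180, 0.0634, 0.254 and 0.174 CPM in WT, a log2 fold change of 4.45 (SE 0.67), or 3.79 without mEmBP-OE-4 replicate 3. The groups did not overlap at these loci, and the line's libraries spread over several-fold at Os04g0359100. The most abundant member, Os04g0338100, kept a high level in both groups, with 254, 200, 160 and 233 CPM in mEmBP-OE-4 and 670, 889, 652 and 665 CPM in WT, a log2 fold change of -1.76 (SE 0.18).

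The members of chromosome 4 lower by over 8-fold did not form 1 block. They made up 14 runs along the ID order, the longest of 3 neighbouring members, with members of the other classes between the runs. The longest stretch with no member called past 8-fold held 16 members, Os04g0347800 to Os04g0353000 (these ends, like those of the runs below, were picked after the values were seen). Members that were not tested, 17 on chromosome 4, counted as not past 8-fold in each segment. They can therefore break a run or lengthen a stretch. Of the 64 tested members 25 lay within 1.5-fold between the groups.

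The chromosome 7 segment, Os07g0540500 to Os07g0543800, held 17 members of 27 rows, with 16 tested. Here 7 were lower by over 8-fold, 3 lower by less, 1 higher by less and 5 not called. Its largest differences sat together at its right end, in the 3 neighbours Os07g0543500, Os07g0543700 and Os07g0543800. Os07g0543500 had 0.129, 0, 0.0492 and 0.0257 CPM in mEmBP-OE-4 replicates 1 to 4, against 28.9, 43.4, 34.3 and 34.1 CPM in WT, a log2 fold change of -9.28 (SE 0.36), or -10.20 without mEmBP-OE-4 replicate 1. Os07g0543700 had 0.181, 0.433, 0.221 and 2.31 CPM in mEmBP-OE-4, against 67.4, 75.2, 94.6 and 83.7 CPM in WT, a log2 fold change of -6.65 (SE 0.67), or -8.22 without mEmBP-OE-4 replicate 4. Os07g0543800 had 0, 0, 0 and 0.0770 CPM in mEmBP-OE-4, against 4.54, 5.58, 4.44 and 5.54 CPM in WT, 248-fold lower with a 95% counting interval of 84.6-fold to 1204-fold. At Os07g0543700 and Os07g0543800 most or all of the little signal in the line came from mEmBP-OE-4 replicate 4. In the same segment Os07g0543100, the most abundant member, had 92.0, 116, 116 and 115 CPM in mEmBP-OE-4 and 116, 152, 143 and 127 CPM in WT, where the groups overlapped.

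The Os11g02 segment, Os11g0225300 to Os11g0229500, had 22 members of 28 rows and 20 tested. None was called higher, 9 were lower by over 8-fold, 7 lower by less and 4 not called. It held the longest unbroken run of loci called past 8-fold, 7 members from Os11g0225300 to Os11g0226933 at its left edge. Os11g0226550 had no count in any mEmBP-OE-4 library, against 1.82, 0.676, 0.939 and 0.782 CPM in WT replicates 1 to 4, at least 55.1-fold lower. Os11g0226700 had 1 count in mEmBP-OE-4 replicate 1 and none in the others, against 4.95, 3.15, 3.96 and 3.33 CPM in WT, 582-fold lower with a very wide 95% counting interval of 104-fold to 23020-fold. Os11g0226400 had 0.0258, 0.10, 0 and 0.103 CPM in mEmBP-OE-4, against 7.78, 9.66, 9.97 and 9.71 CPM in WT, a log2 fold change of -7.34 (SE 0.44). Every mEmBP-OE-4 library was below every WT library at each of them. Right of this run the differences were mostly smaller, although members lower by over 8-fold lay there too, among them the last member, Os11g0229500. The most abundant member, Os11g0227000, had 9.36, 8.73, 9.33 and 10.1 CPM in mEmBP-OE-4 and 12.9, 15.4, 15.3 and 16.4 CPM in WT, a log2 fold change of -0.68 (SE 0.11).

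The Os11g06 segment, Os11g0639300 to Os11g0649700, had 30 members of 49 rows and 25 tested, of which 5 were lower and 3 higher by over 8-fold, 3 lower and 3 higher by less, and 11 not called. Of its 5 members lower by over 8-fold 4 lay among the first 5 at its left edge and the other was its last member. Os11g0639400 had no count in any mEmBP-OE-4 library, against 2.29, 2.94, 2.87 and 2.48 CPM in WT replicates 1 to 4, at least 129-fold lower. Os11g0639300 had 0, 0, 0.0246 and 0.0257 CPM in mEmBP-OE-4, against 2.36, 1.40, 2.87 and 2.76 CPM in WT, 172-fold lower with a 95% counting interval of 47.4-fold to 1427-fold. Os11g0639600 had 0, 0.0333, 0.0492 and 0.128 CPM in mEmBP-OE-4, against 8.69, 6.81, 6.04 and 6.37 CPM in WT, a log2 fold change of -6.95 (SE 0.47), or -7.85 without mEmBP-OE-4 replicate 4. Every library of the line was within a few counts of 0 at these loci, and every WT library was above it.

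In the middle of the same segment, members higher in the line stood beside members at high and similar levels. Os11g0645400 had 3.97, 2.37, 3.91 and 9.98 CPM in mEmBP-OE-4 replicates 1 to 4, against 0.0492, 0, 0.0761 and 0.0652 CPM in WT, a log2 fold change of 6.68 (SE 0.67). Os11g0648100 had 1.96, 0.600, 2.98 and 1.36 CPM in mEmBP-OE-4, against 0.180, 0.148, 0.127 and 0.130 CPM in WT, a log2 fold change of 3.53 (SE 0.50). The groups stood apart at both, although mEmBP-OE-4 replicate 4 was well above the other line libraries at Os11g0645400. Os11g0644600, the most abundant member, had 278, 399, 238 and 327 CPM in mEmBP-OE-4 and 254, 242, 233 and 222 CPM in WT, with overlapping groups.

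The chromosome 12 segment, Os12g0212400 to Os12g0230600, had 41 members of 66 rows and 34 tested. It held 15 members lower by over 8-fold, and its 4 higher by over 8-fold were the most of the 5 segments. Another 4 were lower and 3 higher by less, and 8 were not called. Os12g0216500 had no count in any mEmBP-OE-4 library, against 2.64, 3.74, 3.98 and 4.22 CPM in WT replicates 1 to 4, at least 176-fold lower. Os12g0218300 had 0.0516, 0, 0 and 0.0257 CPM in mEmBP-OE-4, against 18.9, 7.19, 22.3 and 20.0 CPM in WT, 839-fold lower with a 95% counting interval of 287-fold to 4072-fold. Os12g0228400 had 1 count in mEmBP-OE-4 replicate 4 and none in the others, against 5.82, 7.89, 5.40 and 6.95 CPM in WT, 966-fold lower with a 95% counting interval of 173-fold to 38174-fold. WT replicate 2 was low at Os12g0218300, yet it was still far above every library of the line, and without mEmBP-OE-4 replicate 1 the ratio was 1860-fold.

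Of the 4 members of chromosome 12 higher by over 8-fold, the 3 with the largest differences each held several CPM in every library of the line. Os12g0228800 had 5.26, 8.57, 5.17 and 9.52 CPM in mEmBP-OE-4 replicates 1 to 4, against 0.0819, 0, 0.101 and 0.0652 CPM in WT, a log2 fold change of 6.78 (SE 0.50). It lay 2 members after Os12g0228400, which had the opposite pattern. Os12g0230600 had 3.61, 5.33, 5.24 and 4.41 CPM in mEmBP-OE-4, against 0.295, 0.0634, 0.381 and 0.261 CPM in WT, a log2 fold change of 4.21 (SE 0.41). Os12g0221700 had 2.94, 6.53, 4.63 and 5.51 CPM in mEmBP-OE-4, against 0.164, 0.317, 0.279 and 0.369 CPM in WT, a log2 fold change of 4.12 (SE 0.34). Os12g0230100, the most abundant member, had 322, 345, 277 and 315 CPM in mEmBP-OE-4 and 210, 211, 217 and 221 CPM in WT, a log2 fold change of 0.55 (SE 0.10). Here the groups did not overlap, although the difference was small beside those of its neighbours.

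**Figure D2:**
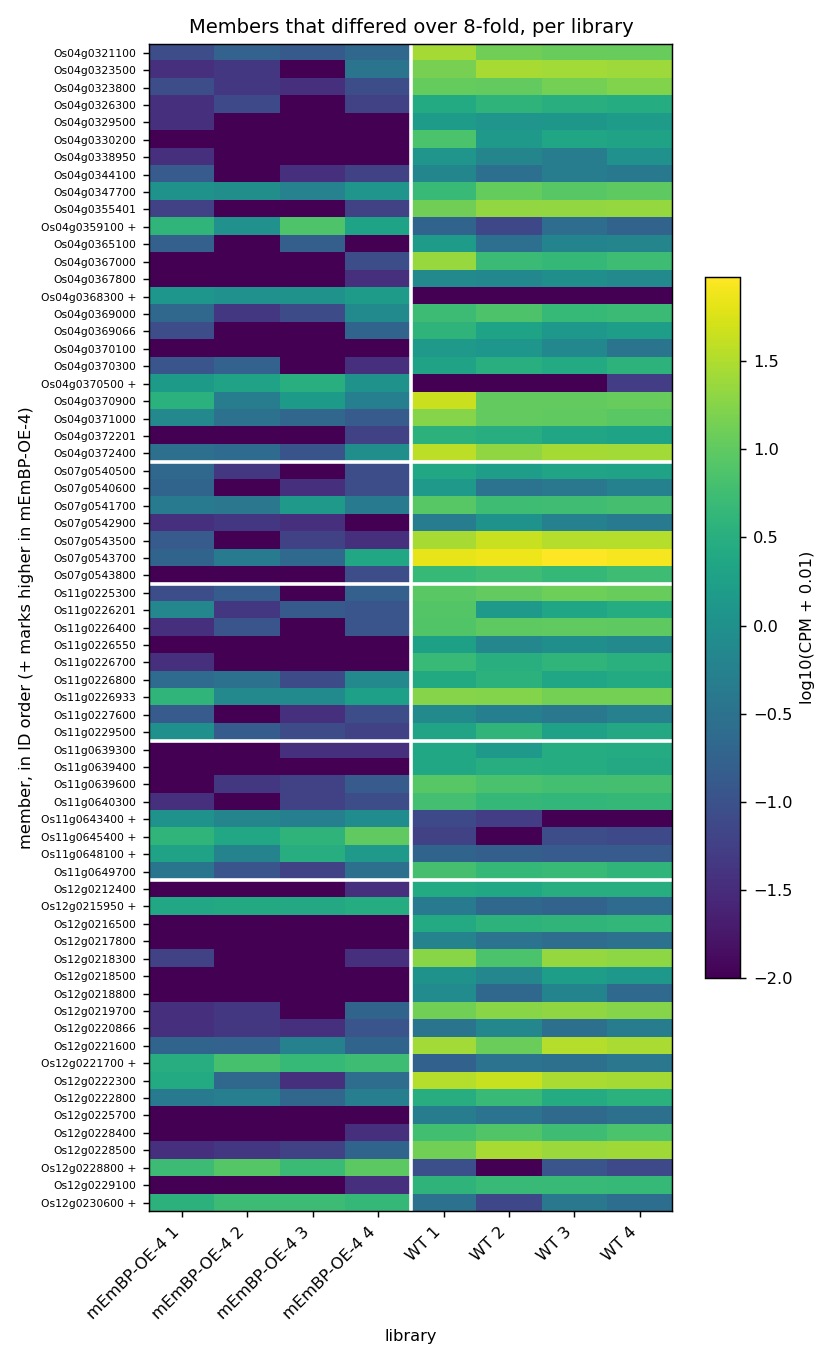
Colour gives log10(CPM + 0.01) of each member that differed by over 8-fold (rows, in ID order, white lines between segments, + for those higher in mEmBP-OE-4) in each library (columns, mEmBP-OE-4 left of WT). Within each row the 57 lower members are darker in all 4 mEmBP-OE-4 libraries than in any WT library. The 10 higher ones are darker in all 4 WT libraries. The rows were picked for a difference over 8-fold in these same libraries, so nothing is read from this separation.

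Levels were also summed over the members of each class. The classes past 8-fold were defined by the difference between the groups in these same libraries, so the separation of their sums was fixed by that choice. The chromosome 7 and Os11g02 segments had no member higher by over 8-fold. The 57 members lower by over 8-fold together held 17.6, 5.80, 6.52 and 12.6 CPM in mEmBP-OE-4 replicates 1 to 4, against 548, 497, 520.5 and 504 CPM in WT. The 10 higher ones together held 27.9, 30.7, 36.9 and 39.1 CPM in mEmBP-OE-4, against 1.43, 0.846, 1.40 and 1.35 CPM in WT. The other 92 tested members together held 2302 ± 204 CPM in mEmBP-OE-4 and 2872 ± 223 CPM in WT (SD, n = 4 each). A large part of that gap lay in 1 abundant locus, Os04g0338100, with means of 212 CPM in mEmBP-OE-4 and 719 CPM in WT. By segment, the mean sums of this class in mEmBP-OE-4 and WT were 792 and 1398 CPM on chromosome 4 and 191 and 260 on chromosome 7. They were 22.6 and 37.2 CPM in Os11g02, 674 and 530 in Os11g06, and 623 and 647 on chromosome 12. With all segments pooled, most of the summed CPM of tested members thus came from members that differed little or moderately, in both groups. This did not hold for WT in the Os11g02 segment taken alone. There the 9 members lower by over 8-fold together held a mean of 50.5 CPM in WT, against 37.2 CPM for the 11 other tested members.

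**Figure D3:**
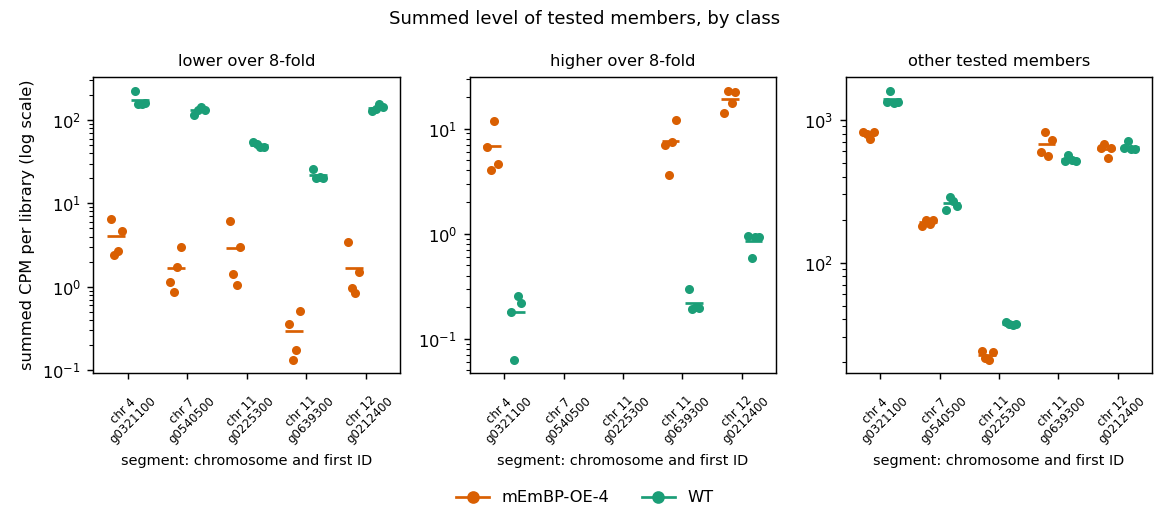
Summed CPM of tested members (y axis, log scale) per segment (x axis), 1 point per library and a line at the mean, mEmBP-OE-4 left of WT in each pair, for 3 classes of members. In the left panel the line's points lie between 0.133 and 6.5 CPM and those of WT between 20.0 and 226 CPM; the chromosome 7 and Os11g02 segments have no member in the middle panel.

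As a group the members were lower than the average gene in the line and, less so, in WT. The median over tested members of the mean level was 1.02 CPM in mEmBP-OE-4 and 4.49 CPM in WT, where all tested genes had 6.89 CPM in mEmBP-OE-4 and 7.03 CPM in WT. Of the 159 tested members 46 lay within 1.5-fold between the groups, where 12116 of all 20690 tested genes did. Rows under 15 counts made up 41.0% of the 324 rows in the ranges and 31.8% of the 35667 Os rows of the table. That share was 47.4% on chromosome 4, 37.0% on chromosome 7, 21.4% in the Os11g02 segment, 38.8% in the Os11g06 segment and 37.9% on chromosome 12. The median log2 fold change of tested members was -0.94, and by segment it was -0.51 on chromosome 4, -1.97 on chromosome 7, -2.48 in the Os11g02 segment, -0.38 in the Os11g06 segment and -0.98 on chromosome 12. It was 0.00 over all tested genes. The member medians were the same with loci at 0 set to their bound, which could not have moved them. Those bounds, 16.8-fold or more, lie well beyond every median.

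The 32 members that were not tested held 16 to 217 counts in all, with a median of 44.5. Of these, 17 had the higher mean level in WT and 15 in mEmBP-OE-4, 6 had no count in any mEmBP-OE-4 library and 1 had none in any WT library. At the limit of 15 counts, the rows just inside held 16 counts and the row just outside held 14.

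The flanks, 25 loci with 15 or more counts on each side of each segment, held few tested loci past 8-fold. The difference between flanks and segments was not tested, since the values that drew the edges are the ones counted. Of 197 tested flank loci among 250, 2 were lower and 2 higher by over 8-fold, 36 were lower and 42 higher by less, and 115 were not called. Past 8-fold these were 1.02% lower and 1.02% higher, where all tested genes had 1.31% and 1.71%. Calls of any size were 19.3% lower and 22.3% higher, near the 19.1% and 20.1% of all tested genes. Each side held only 17 to 24 tested loci, so nothing is read from the counts by side. With library totals alone 85 flank loci were called lower and 18 higher, so the balance of the 38 lower and 44 higher calls also rests on the scaling. Their median log2 fold change was 0.00, and 127 lay within 1.5-fold. By side, the called loci were 8 lower and 3 higher left of the chromosome 4 segment and 4 lower and 1 higher right of it. For chromosome 7 they were 2 lower and 3 higher on the left and 5 lower and 9 higher on the right. For Os11g02 they were 4 lower and 5 higher on the left and 2 lower and 4 higher on the right. For Os11g06 they were 4 lower and 6 higher on the left and 3 lower and 7 higher on the right. For chromosome 12 they were 2 lower and 4 higher on the left and 4 lower and 2 higher on the right.

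**Figure D4:**
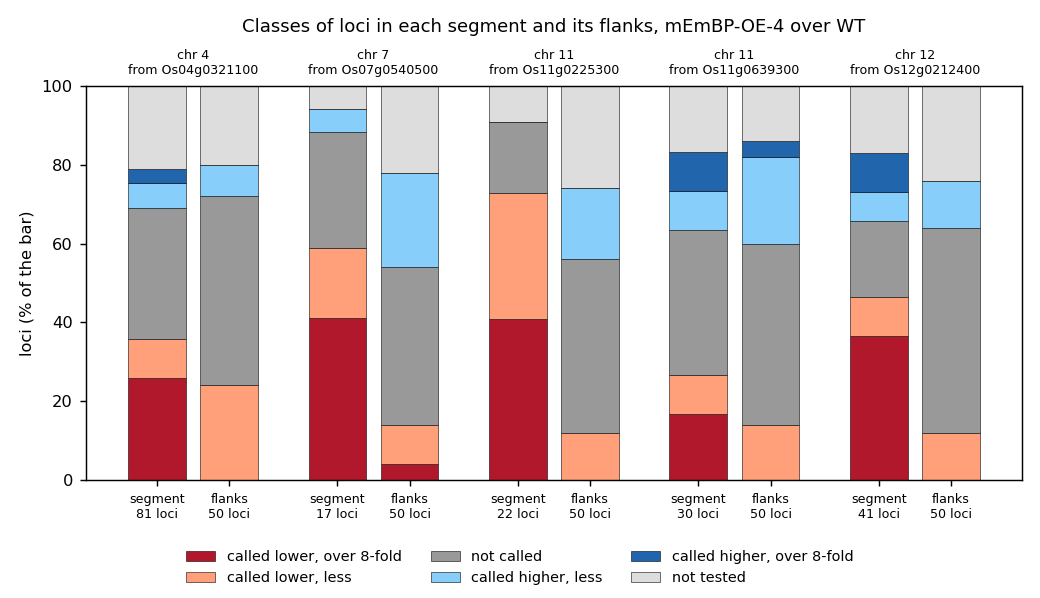
Share of loci in each class (y axis, % of the loci in the bar) for each segment and, beside it, its 50 flank loci; the classes are those of the edgeR call and the 8-fold limit. Loci lower by over 8-fold fill the base of every segment bar, 5 to 21 members, and appear in the flanks of chromosome 7 only, as 2 loci.

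Each segment began and ended with a member past 8-fold, as the choice of the ranges fixes, but the step to the outer neighbour varied between edges. At the left edge of chromosome 4, Os04g0321100 had 0.0774, 0.167, 0.123 and 0.205 CPM in mEmBP-OE-4 replicates 1 to 4, against 27.3, 13.1, 11.3 and 11.1 CPM in WT. Its outer neighbour Os04g0320700 had 107, 229, 147 and 232 CPM in mEmBP-OE-4 and 271, 354, 381 and 329 CPM in WT, a difference of -0.90 (SE 0.24) in log2 against -6.76 (SE 0.44) inside. At the right edge, Os04g0372400 had 0.284, 0.233, 0.0984 and 0.949 CPM in mEmBP-OE-4, against 37.9, 20.9, 27.6 and 26.4 CPM in WT. Beyond it, Os04g0372700 had 12.5, 7.70, 7.60 and 4.08 CPM in mEmBP-OE-4 and 7.21, 4.76, 4.49 and 5.48 CPM in WT, so the groups overlapped there.

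On chromosome 7 the first member, Os07g0540500, had 0.206, 0.0333, 0 and 0.0770 CPM in mEmBP-OE-4 replicates 1 to 4, against 2.34, 1.63, 2.08 and 1.91 CPM in WT. Outside it, Os07g0540200 had 3.74, 4.80, 4.82 and 5.05 CPM in mEmBP-OE-4 and 3.49, 4.38, 5.30 and 4.59 CPM in WT, with overlapping groups. The locus right of the segment, Os07g0544800, was abundant and higher in the line, with 3352, 5973, 4713 and 6183 CPM in mEmBP-OE-4 and 1783, 2146, 2683 and 2408 CPM in WT, a log2 fold change of 1.16 (SE 0.23). It directly follows Os07g0543800, which was near silent in the line.

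In the Os11g02 segment the edges differed from each other. Os11g0225300, the first member, had 0.0774, 0.133, 0 and 0.154 CPM in mEmBP-OE-4 replicates 1 to 4, against 9.06, 10.4, 12.5 and 11.3 CPM in WT, a log2 fold change of -6.89 (SE 0.44). Its outer neighbour Os11g0225100 was higher in the line, with 25.8, 17.4, 16.6 and 16.7 CPM in mEmBP-OE-4 and 10.0, 8.37, 8.83 and 9.52 CPM in WT, a log2 fold change of 1.06 (SE 0.16). The last member, Os11g0229500, was close to the 8-fold limit at -3.06 (SE 0.77), with 0.980, 0.133, 0.0738 and 0.0513 CPM in mEmBP-OE-4 and 2.08, 4.02, 1.90 and 2.52 CPM in WT. Without mEmBP-OE-4 replicate 1 it was -4.95. The locus after it, Os11g0229600, had 0.387, 0.567, 0.541 and 0.462 CPM in mEmBP-OE-4 and 0.557, 0.824, 0.634 and 0.717 CPM in WT, with overlapping groups.

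The loci just outside the Os11g06 segment were too low to test and ran the other way from its edges. Os11g0639100, left of it, had 0.387, 0.333, 0.394 and 0.154 CPM in mEmBP-OE-4 replicates 1 to 4 and no count in WT, at least 20.5-fold higher. Os11g0652100, right of it, had 0.0774, 0.0333, 0.197 and 0.154 CPM in mEmBP-OE-4, against 0.0328, 0, 0 and 0 CPM in WT, a ratio of 11.8 with a 95% counting interval of 2.81 to 104. The last member, Os11g0649700, had 0.335, 0.10, 0.0492 and 0.282 CPM in mEmBP-OE-4, against 6.24, 4.50, 4.85 and 4.00 CPM in WT, a log2 fold change of -4.64 (SE 0.45).

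At the left edge of chromosome 12, Os12g0212400 had 1 count in the line, in mEmBP-OE-4 replicate 4, against 2.69, 2.35, 3.02 and 3.02 CPM in WT replicates 1 to 4. That is 408-fold lower with a 95% counting interval of 72.9-fold to 16153-fold. Its outer neighbour Os12g0211400 was also at 0 in the whole line, but WT held only 0.0819, 0.169, 0.101 and 0.130 CPM, at least 5.87-fold lower in mEmBP-OE-4. Right of the segment, Os12g0231000 varied more within the groups than between them, with 21.9, 57.9, 60.0 and 32.0 CPM in mEmBP-OE-4 and 50.1, 21.2, 57.1 and 58.3 CPM in WT.

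The 4 tested flank loci called past 8-fold were not the outer neighbours of an edge; flank loci below the filter, such as those just outside the Os11g06 segment, are not among them. Os07g0535200 had 0.0258, 0.0667, 0 and 0 CPM in mEmBP-OE-4 replicates 1 to 4, against 1.39, 1.73, 1.5 and 1.70 CPM in WT, 77.6-fold lower with a 95% counting interval of 26.3-fold to 378-fold. Os07g0536400 had 0, 0.0333, 0 and 0.0257 CPM in mEmBP-OE-4, against 1.21, 1.37, 1.24 and 1.43 CPM in WT, 97.3-fold lower with a 95% counting interval of 26.6-fold to 807-fold. Left of the Os11g06 segment, Os11g0636050 had 6.53, 6.13, 6.35 and 7.08 CPM in mEmBP-OE-4, against 0, 0.0211, 0 and 0.0217 CPM in WT, a ratio of 634 with a 95% counting interval of 175 to 5242. Right of it, Os11g0655900 had 1.16, 2.97, 0.984 and 0.590 CPM in mEmBP-OE-4, against 0.147, 0.0423, 0.0761 and 0.0435 CPM in WT, a log2 fold change of 4.09 (SE 0.63), or 3.46 without mEmBP-OE-4 replicate 2. All 4 had groups that did not overlap, and the pair on chromosome 7 held 1 to 3 counts over the line. Without mEmBP-OE-4 replicate 2 the ratios were 186-fold at Os07g0535200 and 155-fold at Os07g0536400, and at Os11g0636050 the ratio was 958 without WT replicate 2 and 967 without WT replicate 4.

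Spread between libraries of the same group did not itself choose the ranges, but it is not independent of that choice. A library was set apart at a locus when it differed by over 4-fold from each of the other 3 of its group, on CPM + 0.1. This was so at 5 of 159 tested members (3.14%) and at 226 of all 20690 tested genes (1.09%), a difference that was not tested. Among the 5, Os04g0367000, Os07g0543700, Os11g0229500 and Os12g0222300 were themselves lower by over 8-fold, so nothing is read from these shares. In 3 of the 5 the library was mEmBP-OE-4 replicate 1, above the others, which was set apart upward at 0.377% of all tested genes. Each of the other 2 involved mEmBP-OE-4 replicate 4 (Os07g0543700) or WT replicate 1 (Os04g0367000), both upward.

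Os07g0543300, the member called higher on chromosome 7, is one where a single library sets the size of the difference. It had 16.2, 0.967, 2.26 and 0.462 CPM in mEmBP-OE-4 replicates 1 to 4 and 0.541, 0.972, 0.507 and 0.587 CPM in WT. The groups overlapped, and the log2 fold change was 2.93 (SE 0.99) with all libraries and 0.91 without mEmBP-OE-4 replicate 1; with the replicate numbers as a block it was 1.80. At Os12g0222300 the line held 2.73, 0.200, 0.0246 and 0.257 CPM, against 33.9, 44.0, 29.9 and 27.5 CPM in WT, so replicate 1 stood out in the line but stayed below every WT library; the log2 fold change was -5.37 (SE 0.84), and -7.75 without that replicate. Os12g0221400, below the filter, had 3.17, 0.267, 0.246 and 0.0257 CPM in mEmBP-OE-4 and 0.885, 0.127, 0.101 and 0.239 CPM in WT, highest in replicate 1 of both groups. Over the 57 members lower by over 8-fold the summed level of the line was also highest in replicate 1, at 17.6 CPM, against 497 CPM in the lowest WT library.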

How the data were processed

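Raw read counts per gene were deposited by the authors as 1 table with a column for each of the 8 libraries. The submitters' processing notes name STAR 2.5.3a, Trim Galore, FastQC, DESeq2 and the IRGSP-1.0 build without role or order. Which program counted reads, whether it used strand, and from which annotation, is not given in the sources used here, so overlapping or near-identical loci are uncertain. Only reads that align to the reference are counted, so a count near 0 does not tell an untranscribed locus from one whose reads did not align, and which applies was not tested. No row for the transgene was analysed here, and leaf markers were not checked, since no ID carries a name. Without names, planned product-name lists could not be run.

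Samples were grouped by title. Of 36850 rows, 1183 had no Os locus ID; they took 0.0193% to 0.0393% of counts and entered scaling and tests. filterByExpr (minimum count 10, minimum total 15) selected the rows to test, which were scaled by TMM and fitted with edgeR 4.0.16 in R 4.3.3 (quasi-likelihood F test, no covariate, Benjamini-Hochberg over 20690 genes, threshold 0.05). The standard error is the absolute log2 fold change over the square root of F. Intervals are 95% exact binomial. The code was checked on simulated counts.

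The members, the flanks and the rule for named loci were chosen with earlier results of these data known. Named per segment were up to 3 lower and 3 higher members of largest fold past 8-fold with a mean of at least 1 CPM in the higher group, the most abundant member, both edge members with their outer neighbours, up to 2 members with a library set apart, and up to 2 loci past 8-fold per flank. Libraries with the same number deviated from their group means together, with correlations across genes of 0.641, 0.347, 0.189 and 0.104. As each was over 0.1, the replicate numbers were taken to pair the libraries in the replicate-block fit. The main fit left this pairing out, and calls and standard errors are from the main fit unless another fit is named. Correlations between libraries of different numbers were not compared, so pairing is not shown by these values. The labels do not say what a number shares. Alternatives were other scalings and filters, DESeq2 1.42.0, the replicate block, left-out libraries, and other limits of fold, count and flank width.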

Additional observations from a re-analysis of the deposited data

Results flagged for a closer look

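Dixon's criterion was applied to 80 groups of 4 values, the named loci and the summed levels whose group averaged at least 1 CPM. It picked out 13. Chance gives about 1 in 20 independent groups, but these groups are not independent. The summed levels include named loci, and some loci, such as Os07g0543300, were named because 1 library was set apart. No excess over chance is therefore read from the 13. In WT replicate 1, Os04g0330200 was at 7.03 CPM against 1.37 to 2.13 in the other WT libraries, Os04g0367000 at 22.6 against 4.52 to 5.50, and Os04g0321100 at 27.3 against 11.1 to 13.1. The same library was low at Os04g0355401 with 12.9 CPM against 21.4 to 21.9 and at Os11g0226400 with 7.78 against 9.66 to 9.97. Its summed level of members lower by over 8-fold was 226 CPM against 156 to 159 on chromosome 4 and 25.6 against 20.0 to 21.0 in the Os11g06 segment. WT replicate 2 had the highest Os04g0338100, 889 CPM against 652 to 670, and the highest summed level of other tested members, 1602 against 1318 to 1336 CPM on chromosome 4 and 710 against 621 to 635 on chromosome 12. In mEmBP-OE-4 replicate 1, Os07g0543300 was at 16.2 CPM against 0.462 to 2.26 in the other line libraries, Os11g0225100 at 25.8 against 16.6 to 17.4, and Os07g0543100 was low at 92.0 against 115 to 116. What set these libraries apart was not tested.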

How the results depend on the processing

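The counts of 57 lower and 10 higher members past 8-fold stayed within 1.5 times under every alternative run except a stricter filter (5 CPM or more in 4 or more libraries), which kept 71 of the tested members and left 22 and 0. With library totals alone, where the median of all tested genes moved to -0.47, they were 60 and 9, while calls of any size were 111 lower and 13 higher among members and 8912 and 1752 among all tested genes (3954 and 4155 with TMM). With the replicate block they were 58 and 10, and the block moved no count of calls past 8-fold by over 1.5 times; calls of any size were 96 lower and 25 higher with it and 82 and 22 without. With both replicate 1 libraries left out, an alternative chosen after the data were seen, they were 58 and 10, and leaving out each library gave 52 to 62 and 10 to 12. These were not always the same members. Of the 57 lower ones, 49 stayed past 8-fold without mEmBP-OE-4 replicate 3, the fewest for any library left out, and 57 without WT replicate 4. Among called members none changed sign in any fit. Flank loci, 2 lower and 2 higher, became 5 lower with library totals alone and with both replicate 1 libraries left out, 5 lower and 11 higher without a filter, 0 and 0 at 5 CPM, 8 and 10 at a 4-fold limit, 6 and 6 with 50 loci a side, 0 lower with the 25 nearest rows and 5 higher with 50 or more counts. Leaving out each library gave 2 to 6 lower (6 without mEmBP-OE-4 replicate 1) and 2 to 6 higher: 4 without mEmBP-OE-4 replicate 2, 5 without WT replicate 1, 2 or 4 and 6 without WT replicate 3. Over all tested genes, 271 lower and 354 higher became 98 and 78 at 5 CPM, and 848 were higher without a filter. The 8 members on in the line alone were 5 at a limit of 2 CPM and 5 with library totals. Causes were not tested beyond the smaller or larger set of genes a filter leaves. Of 693 values of named loci under alternatives, 588 moved by less than 1 SD between replicates and 105 by more. Near 0, folds rest on a few counts. Where 1 library holds all counts of the low group, leaving it out (also chosen after the data were seen, as were other CPM limits) leaves a bound: at least 387-fold at Os04g0367000, 183-fold at Os07g0543800, 143-fold at Os11g0226700, 237-fold at Os12g0228400 and 100.3-fold at Os12g0212400 lower, and 95.9-fold at Os04g0370500 and 5.37-fold at Os11g0652100 higher.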
